A study of Mus musculus with 4 samples.

Results

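The genes described here encode the proteins of the mitochondrial ribosome, read in 4 RNA sequencing libraries of mouse T cells. They are the genes whose GENCODE symbol starts with Mrpl or Mrps followed by a digit, without pseudogenes, and there were 78 of them among the 50600 annotated genes in the count tables. By their place in the ribosome, 51 belong to the large subunit and 26 to the small subunit, and the remaining one, Mrps36, carries the name without being a ribosomal protein. All 4 libraries came from primary T cells of strain C57BL/6NJ and form 1 group, numbered as biological replicates 1 to 4, with no allele, agent or second condition named in the labels. Age was unknown and sex was not collected. The linked protocols are named for differentiation of CD4+ T cells and for poly(A)+ libraries, the assay is titled total RNA-seq, and the alignment names in the file headers carry the words Th0, activated and 24 h. No label says that the 4 libraries came from separate animals, so p-values measure only the spread between these libraries, which may be in part technical.

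The mitochondrial ribosome translates the few mRNAs of mitochondrial DNA, all of which encode subunits of the respiratory chain and the ATP synthase. Its RNAs, mt-Rnr1 in the small and mt-Rnr2 in the large subunit, are made inside the organelle, whereas every protein is encoded in the nucleus, translated in the cytosol and imported. Part of the proteins descend from bacterial ribosomal proteins and part are found only in mitochondria. In T cells, activation is known to be accompanied by growth of the mitochondrial network and a need for mitochondrial translation.

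Library totals were 60102919, 273136467, 48608896 and 47558517 counted fragments in replicates 1 to 4, and the members took 0.494% of them. Replicate 2 thus stood apart by depth. The 5 T-cell markers were all above 1 TPM in every library (a level per length, as a share of all transcripts, computed from counts and exon length), with a summed level of 2908 to 3167 TPM. None of the 4 B-cell markers reached 1 TPM in all libraries (sum 2.08 to 5.10 TPM), the 4 myeloid markers summed to 0.114 to 0.642 TPM, the 2 NK-cell markers to 0 to 0.172 TPM and the 3 red-cell markers to 0 to 0.502 TPM. Xist stood at 163 and 150 TPM in replicates 1 and 2 and at 0.715 and 0.696 TPM in replicates 3 and 4, while the Y-linked Ddx3y stood at 0.0434 and 0.0219 TPM in replicates 1 and 2 and at 38.8 and 39.3 TPM in replicates 3 and 4, so the libraries did not all come from 1 sex.

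Promoter windows of a few members are shown before their levels, because they carry the sequence features counted further on. Each window runs from 250 bases before to 50 bases after a gene's start (RefSeq, GRCm38.p6), 5′ to 3′ on the gene's own strand. The study has 1 condition, so the windows describe the genes and are tied to no change in level. Capitals mark letters that match a motif of NRF1, of ETS factors such as GABP, or of YY1, 3 transcription factors known to act on nuclear genes for mitochondrial proteins. The window of Mrpl12, the most abundant member, lies at chr11:120484387-120484686 on the plus strand and holds an NRF1 match, read on the other strand. The window of Mrpl9, a member of very even level, lies at chr3:94443086-94443385 on the plus strand and holds the palindromic form of the NRF1 motif. The window of Mrps27 lies at chr13:99344536-99344835 on the plus strand and holds an ETS match on the other strand and a YY1 match after the start. Mrps11 and Mrpl46 lie head to head on opposite strands. The stretch that their windows share, at chr7:78783040-78783180 and given on the plus strand, holds no match. Mrps11 has a YY1 match outside that stretch.
Mrpl12: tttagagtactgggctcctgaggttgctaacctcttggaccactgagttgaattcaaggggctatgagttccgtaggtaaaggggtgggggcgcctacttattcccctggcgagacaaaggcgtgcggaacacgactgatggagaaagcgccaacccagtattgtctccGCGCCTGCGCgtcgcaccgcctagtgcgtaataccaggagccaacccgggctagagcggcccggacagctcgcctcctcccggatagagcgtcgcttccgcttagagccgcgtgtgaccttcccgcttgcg
Mrpl9: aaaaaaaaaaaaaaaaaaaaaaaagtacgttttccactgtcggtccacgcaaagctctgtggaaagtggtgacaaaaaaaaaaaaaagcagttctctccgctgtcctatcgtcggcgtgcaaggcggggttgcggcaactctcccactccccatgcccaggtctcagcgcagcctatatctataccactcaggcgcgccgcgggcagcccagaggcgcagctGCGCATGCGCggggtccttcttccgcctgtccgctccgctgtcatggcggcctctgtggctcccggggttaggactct
Mrps27: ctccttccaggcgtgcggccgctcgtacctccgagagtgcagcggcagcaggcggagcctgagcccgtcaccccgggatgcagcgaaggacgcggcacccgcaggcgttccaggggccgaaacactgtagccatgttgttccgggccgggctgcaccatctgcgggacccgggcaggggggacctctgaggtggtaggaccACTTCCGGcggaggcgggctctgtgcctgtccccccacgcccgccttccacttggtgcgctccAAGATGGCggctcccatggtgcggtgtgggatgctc
Mrps11 and Mrpl46 shared: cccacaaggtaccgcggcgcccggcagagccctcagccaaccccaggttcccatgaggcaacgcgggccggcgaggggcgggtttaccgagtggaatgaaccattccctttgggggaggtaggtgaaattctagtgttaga

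The members were abundant as a group. Of the 78, 76 stood at 10 TPM or more in all 4 libraries, which is 97.4% of them, beside 8109 of the 12712 genes tested, or 63.8%. At 100 TPM or more in all libraries there were 36 of the 78 members, beside 2014 of the 12712 genes tested. The median member stood at 92.2 TPM, against 23.0 TPM for the median gene tested. Summed over the members, the level was 8795 ± 250 TPM (SD, n = 4), with 9112, 8857, 8528 and 8681 TPM in replicates 1 to 4. In bulk RNA, more cells that express a gene and more RNA per cell cannot be told apart. For scale, the 83 genes of the cytosolic ribosome that were measured had a median of 928 TPM and took 11.6% of all TPM, where the members took 0.879%.

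By subunit, the 51 large-subunit genes had a median of 97.8 TPM and the 26 small-subunit genes a median of 82.9 TPM. On the length of each gene's principal transcript, described further on, the medians were 101 TPM for both. Among large-subunit genes, the 30 listed with a bacterial homologue had a median of 91.8 TPM and the 21 listed as mitochondrial a median of 109 TPM. Among small-subunit genes, the 16 listed with a bacterial homologue had a median of 111 TPM and the 10 listed as mitochondrial a median of 54.6 TPM. The lists of mitochondrial genes include Mrps18a and Mrps18b, although both are paralogues of Mrps18c, which was listed with a bacterial homologue. On principal-transcript length the bacterial homologues had the higher median in both, at 111 against 97.0 TPM in the large subunit and 118 against 75.6 TPM in the small subunit.

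Mrpl12, at chr11:120484613-120489065, was the most abundant member. It encodes the stalk protein of the large subunit, to which translation factors bind. Its level was 525, 523, 517 and 535 TPM in replicates 1 to 4, or 525 ± 7.45 TPM (SD, n = 4), and it ranked 271 among all annotated genes. Mrps16, the homologue of bacterial S16 in the small subunit, followed with 359.7, 350.0, 367 and 363 TPM. Mrpl18, a protein of the central protuberance, had 345, 317, 296 and 321 TPM. The libraries of these 3 genes did not overlap with one another or with those of any lower gene on exon length. On principal-transcript length Mrpl12 was again first, but Mrpl52 (346 TPM), Mrpl20 (282 TPM) and Mrpl42 (281 TPM) stood above Mrpl18 (250.9 TPM) and Mrps16 (246 TPM).

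Below them the order on exon length was not resolved. Mrpl36, the homologue of bacterial L36, averaged 252 ± 7.28 TPM and Mrpl28, the homologue of bacterial L28, 244 ± 12.4 TPM, and their libraries overlapped. Mrpl34 averaged 228 ± 23.4 TPM. Mrpl2, which lines the peptidyl transferase centre, averaged 219 ± 11.2 TPM. Mrps6 of the small-subunit platform averaged 219 ± 11.6 TPM, Mrps7 of the small-subunit head 213 ± 22.1 TPM and the mitochondrion-specific Mrps23 208 ± 10.6 TPM (SD, n = 4 for each). Over the whole ranked list, only 11 of the 77 pairs of neighbours had libraries that did not overlap.

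**Figure D1:**
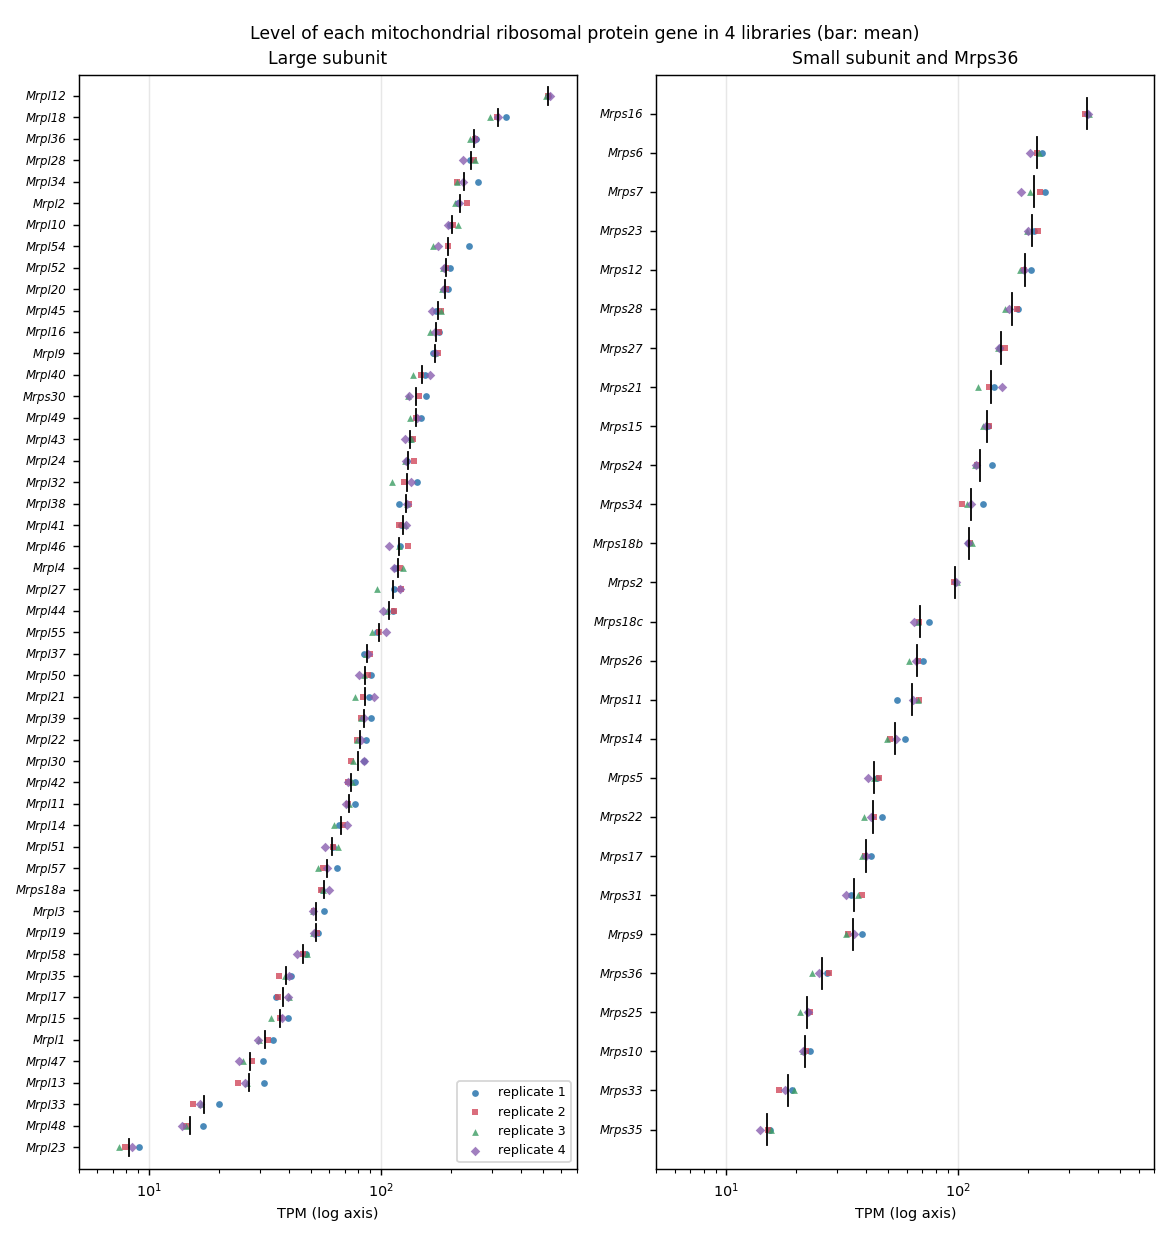
Level in TPM (log axis) of each member in the 4 libraries, with 1 symbol for each replicate and a bar for the mean, large-subunit genes on the left and small-subunit genes with Mrps36 on the right, ordered by mean. Most genes lie between 20 and 250 TPM with their 4 libraries close together, and Mrpl12 and Mrps16 lie above the rest; Mrpl53, at 0 in 2 libraries, is not drawn.

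At the low end, Mrpl53 had by far the fewest counted fragments of all members. It encodes a mitochondrion-specific protein at the base of the stalk. Its counts were 0, 38, 11 and 0 fragments in replicates 1 to 4, which gives 0, 0.608, 0.985 and 0 TPM, where a count of 0 allows up to 0.271 TPM at the depth of the shallowest library. This is not a measure of its transcript. Mrpl53, at chr6:83109040-83109939 on the plus strand, shares 695 of its 790 exon bases, or 88.0%, on the same strand with the annotated gene Gm42688, and the counting left out fragments that overlap more than 1 gene. Gm42688 itself, which also shares exons with Ccdc142, had 74, 608, 111 and 40 fragments. No other member shared more than 37.0% of its exon bases: Mrps34 shared that much with Nme3, Mrps18c shared 23.2% with Gm43511, Mrps24 15.4% with Urgcp and Mrps6 15.1% with Slc5a3. In all, 8 members, or 10.3%, shared any exon base on the same strand, beside 7.81% of the genes tested. Fragments on the shared bases were counted for neither gene.

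The next lowest members were measured on 420 fragments or more a library, and most were long in exons. Mrpl23, a protein at the mouth of the nascent-chain tunnel, had 9.06, 7.88, 7.46 and 8.42 TPM. Mrpl48 of the central protuberance averaged 15.0 ± 1.396 TPM and Mrps35 of the small subunit 15.0 ± 0.683 TPM. Mrpl33, the homologue of bacterial L33, averaged 17.2 ± 1.94 TPM and Mrps33 18.4 ± 1.24 TPM. Mrps10 averaged 21.9 ± 0.717 TPM, Mrps25 22.3 ± 0.945 TPM and Mrpl13 27.0 ± 3.07 TPM. Mrps36, now known as a subunit that anchors the E3 enzyme in the α-ketoglutarate dehydrogenase complex, averaged 25.8 ± 1.99 TPM (SD, n = 4 for each).

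The order of the members, at both ends, depends on the length by which the counts are divided. The deposited length is that of all annotated exons of a gene merged, and 8 of the 10 lowest members tested had over 4000 bases of it, whereas the 10 highest had 566 to 2072 bases. Over the 77 members that passed the filter on low counts, Spearman's rho of TPM with that length was -0.74, and rho of CPM (counts scaled to the library total), not divided by length, was 0.24. TPM on the length of the principal transcript still had a rho of -0.58 with that length. These are correlations across genes that share the same 4 libraries, given as a description. In 18 members the merged exons were over 2 times as long as the longest principal transcript of GENCODE vM21, and in 7 over 4 times.

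With the principal transcript as length, an alternative chosen after the data were seen, several low genes stood higher in the list. Their new ranks ran from 12 for Mrpl33 to 65 for Mrpl23 among the 78 members. Since TPM are shares of 1 total, a gene whose lengths agree moved as well: Mrps16 stood at 246 TPM on transcript length and at 360.0 TPM on exon length. Mrpl33, whose merged exons are 15.3 times the transcript, stood at 181 TPM on transcript length and 17.2 TPM on exon length. Mrps10 stood at 119 and 21.9 TPM, Mrpl13 at 120.0 and 27.0 TPM, and Mrpl23 at 39.6 and 8.21 TPM, in the same order of lengths. Mrps25, Mrps33, Mrps35 and Mrpl48 remained among the lowest on both lengths, at 16.5 to 21.3 TPM on transcript length. Mrpl12 was first on both, 6 of the lowest 10 and 5 of the highest 10 tested were shared, and rho between the orders was 0.73. Neither length says which transcripts the T cells made.

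**Figure D2:**
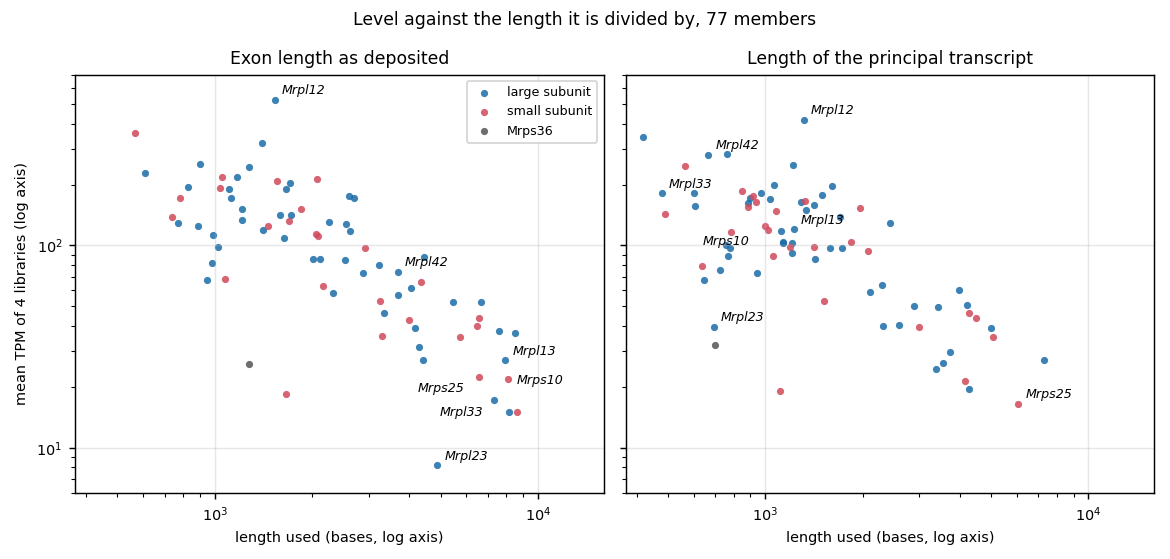
Mean TPM of 4 libraries (log axis) against the length used to compute it in bases (log axis), for the 77 members that passed the filter, with the deposited exon length on the left and the length of the principal transcript on the right. Mrpl33, Mrps10, Mrpl13 and Mrpl23 lie low on the left and higher on the right, while Mrpl12 stays at the top of both and Mrps25 at the bottom right of both.

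Within the ribosome, members of 1 structure differed widely in level. The stalk list (Mrpl12, Mrpl10, Mrpl11 and Mrpl53) ranged from Mrpl12 at 525 TPM to Mrpl11 at 73.1 TPM, leaving out Mrpl53, whose level these counts do not give. Mrpl12 was above Mrpl10, the protein that anchors it, by 1.37 ± 0.08 on the log2(TPM + 1) scale, and above Mrpl11, the stalk-base protein, by 2.83 ± 0.06, in 4 of 4 libraries each. Mrpl10 averaged 203 ± 8.86 TPM and Mrpl11 73.1 ± 2.73 TPM (SD, n = 4 each). Of the 6 proteins listed around the tunnel exit, Mrpl45, which ties the ribosome to the inner membrane, was highest at 176 ± 7.77 TPM and Mrpl23 lowest on exon length. On principal-transcript length Mrpl24 was highest, at 151 TPM with Mrpl45 at 129 TPM, and Mrpl47 lowest, at 24.4 TPM with Mrpl23 at 39.6 TPM. Of the 6 listed in the central protuberance, Mrpl18 was highest and Mrpl48 lowest on both lengths. Of the 12 members listed for human mitochondrial disease, all 12 reached 10 TPM in each of the 4 libraries, and their median was 111 TPM, from Mrps25 at 22.3 TPM to Mrpl12.

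Differences between paralogues held between libraries, but most did not hold between lengths. Mrps18a sits in the large subunit and its paralogues Mrps18b and Mrps18c in the small subunit. Mrps18b had 110.1, 112, 115 and 110.4 TPM, Mrps18a 55.6, 55.2, 56.5 and 59.9 TPM, and Mrps18c 75.1, 67.7, 67.0 and 64.2 TPM. Mrps18b was above Mrps18a by 0.97 ± 0.06 and above Mrps18c by 0.70 ± 0.11 (log2, SD, n = 4), and Mrps18a differed from Mrps18c by -0.26 ± 0.14. On principal-transcript length the first difference was -0.13 and the last 1.03, so only the order of Mrps18b over Mrps18c (0.90) was kept. Mrpl37 and Mrps30, related proteins that both sit in the large subunit, averaged 87.3 ± 2.44 and 142 ± 12.1 TPM, a difference of -0.69 ± 0.14, which was 0.87 on transcript length. Outside the paralogues, Mrps36 was above Mrps35 by 0.74 ± 0.13. That difference was 0.57 on transcript length and -1.88 without division by length. Each of the 7 differences had 1 direction in 4 of 4 libraries, and an exact permutation test that flips signs (two-sided) gave p = 0.125 for each (0.125 after Benjamini-Hochberg adjustment over the 7), the smallest value that 4 libraries allow.

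Of the proteins of the mitochondrial ribosome that carry other names, all 5 were expressed, with a median of 120.2 TPM. Chchd1 averaged 224 ± 29.2 TPM, Aurkaip1 165 ± 6.24 TPM, Gadd45gip1 (also known as CRIF1) 120.2 ± 6.43 TPM, the pentatricopeptide protein Ptcd3 64.1 ± 1.77 TPM and the GTP-binding protein Dap3 61.8 ± 1.73 TPM. The factors that serve the ribosome had lower medians than its proteins. The 12 mitochondrial translation factors had a median of 22.2 TPM, from the elongation factor gene Tufm at 228 ± 8.43 TPM to the release factor gene Mtrf1 at 9.93 ± 0.548 TPM. The 24 assembly factors had a median of 32.1 TPM, from Rbfa, which matures the small subunit, at 169 ± 11.2 TPM to the GTPase gene Gtpbp10 at 8.82 ± 1.11 TPM. Tfam, which packages and transcribes mitochondrial DNA, was the highest of 4 mitochondrial transcription genes at 67.5 ± 5.29 TPM and Tfb2m the lowest at 15.97 ± 1.22 TPM. Among 9 regulators of mitochondrial biogenesis, Myc was highest at 665 ± 20.8 TPM and Ppargc1b lowest of those tested at 11.1 ± 0.840 TPM, while Ppargc1a had no fragment in any library (SD, n = 4 for each).

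In the main fit, the variation of the members between the 4 libraries did not stand apart from that of all genes by the count of calls. Each gene was tested for goodness of fit to 1 common level (edgeR, negative binomial with trended dispersion, Benjamini-Hochberg over 12712 genes). The dispersion trend came from the same 4 libraries, so a call marks a gene more variable than genes of like abundance. The absence of a call does not show a constant level. An adjusted p under 0.05 was reached by 0 of the 77 members that passed the filter. Beside them stood 46 of all genes tested, or 0.362%, a share that corresponds to under 1 of 77 genes. Xist was among the 46. At an unadjusted p under 0.05 there were 3 members, beside 704 of all genes, or 5.54%. Leaving out replicate 2 gave 2 of 77 members, beside 621 of 12690 genes. Leaving out replicate 3 gave 5 of 77 members, beside 670 of 13016 genes. The coefficient of variation of the members ran from 1.2997 to 16.99% with a median of 5.26%. For all genes tested, whose median level was lower, the median was 7.48%. The members tested rested on 420 to 63457 fragments a library. No test of the list against other genes was made.

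The largest deviance among members was that of Mrpl54, a mitochondrion-specific large-subunit protein, with 239, 195, 167 and 175 TPM in replicates 1 to 4 (adjusted p = 0.166, edgeR goodness of fit). Replicate 1 was its highest library and replicate 3 its lowest. Mrpl13, a large-subunit protein with a bacterial homologue, had 31.4, 24.3, 26.4 and 25.9 TPM (adjusted p = 0.655, edgeR). Mrps7 had 236, 225, 203 and 187 TPM (adjusted p = 0.679, edgeR), in which replicates 1 and 2 lay above replicates 3 and 4. Xist and Ddx3y split the libraries in the same way. Sex cannot be told apart here from other differences between these libraries, and was not tested. Mrpl33 had 20.04, 15.6, 16.8 and 16.6 TPM (adjusted p = 0.938, edgeR). Mrps34, a small-subunit protein tied to human disease, had 128, 104, 109 and 114 TPM (adjusted p = 0.962, edgeR). In 4 of these 5 genes replicate 1 stood alone above the rest, and none passed the adjusted threshold. The smallest deviances were those of Mrps18b, of Mrpl9 with 167, 175, 171 and 171 TPM, and of Mrps2 with 96.8, 95.9, 98.5 and 97.6 TPM.

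Replicate 1 was the highest library for most members, by a small amount. The median member lay 0.066 above its own mean in replicate 1, on the log2 scale of normalised CPM, and at -0.014, -0.051 and -0.0023 in replicates 2, 3 and 4, while the median of all genes tested lay between -0.00097 and 0.0026. Replicate 1 was the highest library for 45 of 77 members, or 58.4%, beside 33.0% of all genes tested, and replicate 3 was the lowest for 38, or 49.4%, beside 24.8%. Above its own mean in replicate 1 lay 61 of 77 members, or 79.2%, beside 50.7%. Both subunits were higher there, at 0.057 for large-subunit and 0.074 for small-subunit genes, whereas the cytosolic ribosomal genes lay at 0.034, -0.045, -0.061 and 0.078 in replicates 1 to 4 and were thus highest in replicate 4. The offset of 0.066 corresponds to a 1.05-fold level, and no test was made of it, as it is a score over chosen genes. Across all genes tested, the deviation of replicate 1 went with the GC content of the transcript (rho -0.34), and across the members rho was -0.26. The members' median GC content was 50.4%, against 50.2% for all genes tested. The 4842 tested genes within the middle range of the members' GC content had a median of -0.0099 in replicate 1. The part of GC content in the members' offset was not tested.

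**Figure D3:**
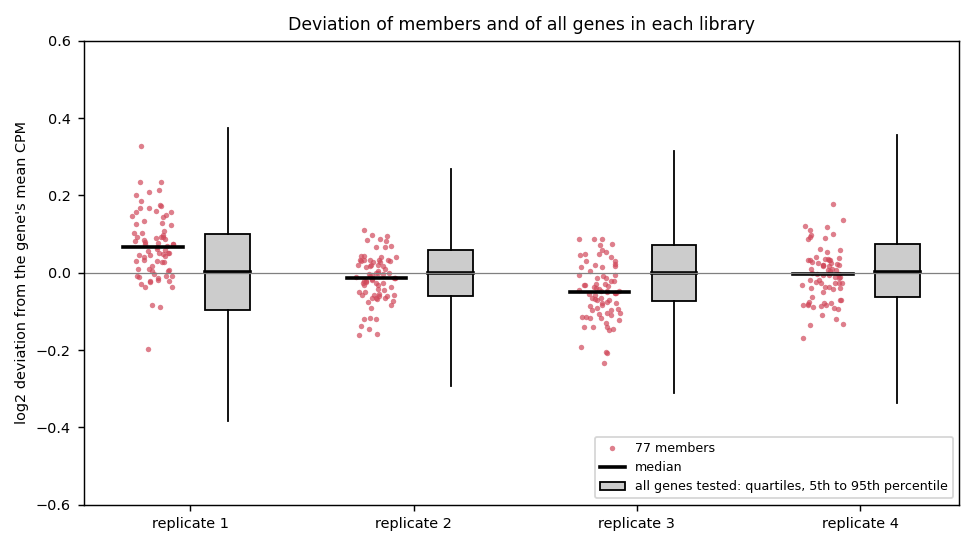
Deviation of each member from its own mean over libraries (log2 of normalised CPM), 1 point for each of 77 members with the median as a bar, beside a box of quartiles, median and 5th to 95th percentile for all 12712 genes tested, in each library. The members lie mostly above 0 in replicate 1 and below 0 in replicate 3, inside the range of all genes, whose medians stay at 0.

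The RNAs of the same ribosome followed a similar order of libraries. The small-subunit rRNA gene mt-Rnr1 had 409.6, 319.5, 278 and 292 TPM, with an adjusted p of 0.00386 in the edgeR goodness of fit. The large-subunit rRNA gene mt-Rnr2 had 392, 357, 324 and 337 TPM (adjusted p = 1.00, edgeR). Both were highest in replicate 1 and lowest in replicate 3, and the part of library handling in this was not tested. The median GC content of the 2 genes was 35.6%, against 50.2% for all genes tested. The part of GC content in their order of libraries was not tested either. The linked protocols are named for poly(A)+ libraries, so these values need not reflect the amount of rRNA. The mRNA gene mt-Nd1 was also highest in replicate 1 and lowest in replicate 3, at 3695 and 3410 TPM. Of the 7 mitochondrial mRNA genes tested, 2 were highest in replicate 1 and 3 in replicate 3. Only 1 of the 7 was lowest in replicate 3, while 5 were lowest in replicate 4.

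Along the genome, members stood head to head with another gene more often than tested genes in general. Of the 78, 35 had the start of a gene on the opposite strand within 1 kb of their own start, or 44.9%, beside 25.9% of the genes tested. With a neighbour that passed the filter as well, there were 30 members, or 38.5%, beside 17.7%. By class, the share with any such neighbour was 66.7% of the 21 large-subunit genes listed as mitochondrial and 36.7% of the 30 large-subunit bacterial homologues. In the small subunit it was 40.0% of the 10 genes listed as mitochondrial and 37.5% of the 16 bacterial homologues. These are counts over annotated genes, with no test.

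Several neighbours were themselves abundant. Tcp1, which encodes a subunit of the cytosolic chaperonin, lies across from Mrpl18 and stood at 542 ± 12.8 TPM. Mrpl46 and Mrps11 are a pair of members in different subunits, whose annotated genes overlap by 412 bases at their 5′ ends, and had 120 ± 9.25 and 63.2 ± 6.05 TPM. Mrps11 was lowest in replicate 1, at 54.5 TPM, where its neighbour was not. Ppp1r10 across from Mrps18b stood at 123 ± 7.82 TPM, Rab6a across from Mrpl48 at 76.98 ± 4.12 TPM, Mtbp across from Mrpl13 at 47.6 ± 1.14 TPM, Gga3 across from Mrps7 at 39.2 ± 1.84 TPM, and Apba3, whose start lies 26 bases from that of Mrpl54, at 39.0 ± 2.08 TPM (SD, n = 4 for each). Apba3 had its lowest value, 36.1 TPM, in replicate 1, where Mrpl54 had its highest. Helq across from Mrps18c stood at 32.4 ± 0.689 TPM, Eme2 across from Mrps34 at 9.84 ± 1.87 TPM and Cyb5rl across from Mrpl37 at 7.55 ± 0.581 TPM. Oaz3 across from Mrpl9, Lrrc46 across from Mrpl10 and B430218F22Rik across from Mrps30 were each under 1 TPM in every library.

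The promoter windows shown above were searched for 6 motifs on both strands, in the 69 members with a RefSeq window. An ETS motif (CCGGAAGT) was present in 12 members, or 17.4%, beside 10.03% of 9211 tested genes with a window and 4.31% of all 27025. The NRF1 motif (GCGCA, any base, then GCGC) was present in 13 members, or 18.8%, beside 12.3% of tested and 5.19% of all genes. The YY1 motif (AAGATGGC) was present in 12 members, or 17.4%, beside 5.67% and 3.19%. At least 1 of the 3 was present in 34 members, or 49.3%, beside 25.5% and 11.7%. An E-box (CACGTG) was present in 5 members, or 7.25%, beside 12.2% of tested and 8.09% of all genes. The CCAAT letters were present in 39.1% of members, beside 43.4% and 41.1%, and TATAAA in 7.25%, beside 8.01% and 15.7%. The windows did not differ much in base composition: the median GC content was 58.7% for members and 61% for tested genes, and the median number of CpG was 21 for both. A match describes the letters of the window and is not a bound site.

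**Figure D4:**
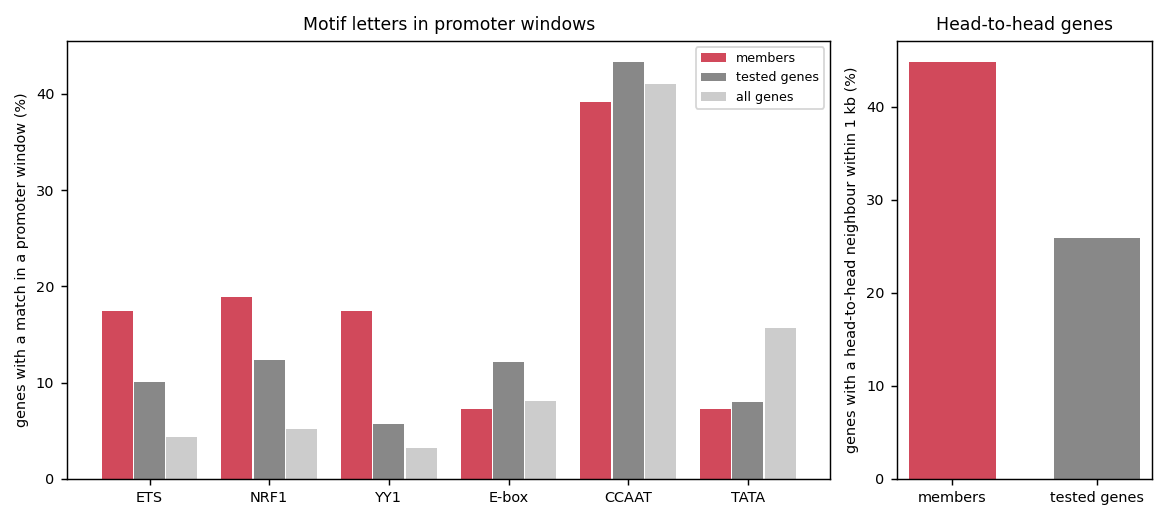
Left: share of genes (%) with a motif match in a promoter window, for 69 members, 9211 tested genes and all 27025 genes with a window. Right: share of genes (%) with a head-to-head neighbour within 1 kb, for the 78 members and the 12712 tested genes. The members' bars are the tallest of their group for ETS, NRF1 and YY1 and for head-to-head neighbours, and not for E-box, CCAAT and TATA.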

How the data were processed

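Counts deposited by the authors were made, per the file headers, with featureCounts 1.4.6-p4 on fragments with both ends aligned, strand setting 2, over merged exons of GENCODE vM13, leaving out fragments that aligned to several places or overlapped several genes. The build is mm10 per the labels, and the alignments carry the name of STAR output, the settings being not given in the sources used here. The deposited exon length is the authors' as well. Symbols came from GENCODE vM21 (50376 of 50600 identifiers matched), and 5 member pseudogenes were left out. TPM was computed here from counts and length. Variation was tested with edgeR 4.0.16 (R 4.3.3): filterByExpr (minimum count 10), TMM, and a residual deviance read as chi-square (3 degrees of freedom). The procedure was also run on counts simulated from the means and dispersion trend of these data. That run shares the model and cannot show that the model fits the data. Counts of each pair of replicates differed by more than sampling (9.14 to 29.1 chi-square units a gene), so all 4 were kept. Floors of 3 counts cover counting error only. Gene pairs used log2(TPM + 1). Exon overlaps and head-to-head starts came from the gene coordinates deposited with the counts (GENCODE vM13). Principal transcripts and GC content came from GENCODE vM21, on the same build.

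The members, lists, pairs and tests were chosen with earlier results of these data known. Named genes are the 10 highest and 10 lowest members, the 5 of largest and 3 of smallest deviance, the pair genes, the extremes of each list, the 5 ribosomal genes with other names, members with over 50% of their exon bases shared, and the head-to-head neighbours of these; other members were named after their values were seen. Normalization, filters, dispersion, scaling, threshold, length and the libraries included were varied.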

Additional observations from a re-analysis of the deposited data

Results flagged for a closer look

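Single libraries were looked for in 82 sets of 4 values by the gap of the extreme library to its nearest neighbour over the range, a measure that chance flags in about 1 of 20 sets. The flagged sets, all named below, were about as many as that rate gives. Mrpl3, the homologue of bacterial L3, was higher in replicate 1, at 57.0 TPM, against 50.9 to 51.3 TPM in the others (gap over range 0.931). Mrps24 was higher in replicate 1, at 139 TPM, against 118 to 120.5 TPM (0.881). Mrpl36 was lower in replicate 3, at 241 TPM, against 255 to 257 TPM (0.831). The total of fragments was higher in replicate 2 than in the others (0.944).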

How the results depend on the processing

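Of the values recomputed under the alternatives, 119 stayed within their limits, 13 moved and 6 were counted as reversed. A median shift that changed sign by less than its limit was counted as staying within it. The count of members called in the goodness-of-fit test was 0 under every alternative run. The count of genes called over all genes was 46, and 862 of 12712 with a common dispersion. In that setting 0 of 77 members had an unadjusted p under 0.05, beside 1807 of the 12712 genes. The share of members was thus lower there than that of all genes. The count of genes called over all genes ranged from 25 to 40 with 1 library left out, 25 being the count without replicate 2. The median level of members was 27.0 as RPKM and 99.5 TPM on principal-transcript length, that of large-subunit genes 28.6 as RPKM, and that of small-subunit genes 24.3 as RPKM and 101 TPM on transcript length, as RPKM is on another scale. Mrps18b minus Mrps18a was -0.13 on transcript length. Mrps18a minus Mrps18c was 1.47 without division by length and 1.03 on transcript length. Mrpl37 minus Mrps30 was 0.78 and 0.87 under the same alternatives, and Mrps36 minus Mrps35 was -1.88 without division by length. With replicate 1 left out, the medians of the members were 0.0072 in replicate 2, -0.025 in replicate 3 and 0.016 in replicate 4. Those of replicates 2 and 4 thus changed sign, from -0.014 and -0.0023 with all 4 libraries. The transcript length was an alternative added after the data were seen. No paired analysis was possible because all 4 libraries belong to 1 group. Genes that share exons on 1 strand, Mrpl53 above all, are limited by the counting rule and not by depth.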
